A study of Mus musculus with 12 samples.

Results

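The response of primary mouse brain endothelial cells (BECs) to oxygen–glucose deprivation and reoxygenation (OGD-R) was measured across both genotypes of the study, Cort+/+ and Cort-/-. The comparison set all 5 OGD-R libraries with a deposited column against all 5 libraries from normoxia and normoglycaemia (NX/NG), with genotype as an additive term. Each environment had 3 Cort+/+ and 2 Cort-/- libraries, so 10 of the 12 samples of the series entered, and the labels exempt the other 2 (Cort-/- replicate 3 of NX/NG and replicate 2 of OGD-R) from the processed files. RNA-seq libraries came from cultures of C57BL/6 mice, each replicate pooled from 3 animals. OGD-R cells spent 4 h at 1% O2 in medium without glucose or serum, followed by 20 h at 21% O2 with 5.5 mM glucose and 10% FBS. Controls stayed 24 h under NX/NG. Oxygen, glucose and serum were withdrawn together, and their parts in the response cannot be told apart. Cort-/- animals lack the gene of the neuropeptide cortistatin in every cell. The study's methods describe enrichment of BECs by 60 h in puromycin and give an age of 8 weeks for Cort+/+ donors. The labels name the environments NM and OGD and give every sample a stroke model as disease state, although the RNA came from cultures.

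Brain endothelial cells line cerebral capillaries and, through tight junctions and selective transporters, form the blood–brain barrier. When oxygen falls, cells stabilise hypoxia-inducible factors (HIF), which raise glycolytic and angiogenic genes and are degraded again once oxygen returns. Lack of glucose lowers the activity of the sugar-sensing factors MondoA and ChREBP, and return of growth factors in serum activates the MAPK cascade and immediate early genes such as Fos and Egr1. RNA was taken 20 h into reoxygenation, and earlier times were not sampled.

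Reads on genes were recovered from the deposited RPKM and summed to between 12386048 and 12390428 in the 10 libraries. A pair of OGD-R libraries stood apart from the other 8. The share of reads from ribosomal RNA (Rn18s-rs5) was 0.0775% for replicate 1 of Cort+/+ cells and 0.0951% for replicate 3 of Cort-/- cells, both after OGD-R, against 7.64% to 15.8% in the others. The leading principal component, with 33.6% of the variance, placed these 2 libraries at 56.4 and 51.5 and the other 8 between -27.5 and -0.51. Values without both libraries are therefore given below beside the calls and beside the medians of most gene lists. On the third component (10.04% of the variance) the NX/NG libraries lay between -5.34 and 23.1 and the OGD-R libraries between -25.7 and 3.08. Reads on Cort itself numbered 2, 1 and 1 among Cort+/+ controls, 1 in replicate 3 of Cort+/+ cells after OGD-R and 0 in the other 6 libraries, at or under a floor of 3 reads per library, so no fold is given. Replicates within a group differed by more than counting noise in every pair.

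Few transcripts passed an adjusted threshold for a difference after OGD-R, which does not show that the others were unchanged. Of 13789 genes tested (those averaging 1 RPKM or more), 10 passed a Benjamini-Hochberg adjusted p of 0.05 in limma, which is 0.0725% of the genes tested, 5 higher and 5 lower after OGD-R. The higher genes were Nr1d1, Fos, Egr1, Ank and Il11, and the lower ones were Txnip, Gm15441, Gm37565, Slco4a1 and Hmox1. At an unadjusted p under 0.05 there were 903 higher genes (6.55%) and 764 lower genes (5.54%). Together they were 12.1% of the genes tested, and without the 2 libraries low in ribosomal RNA 701 were higher and 671 lower. A share of 0.05 is the average without any difference. Genes are not independent of each other, so whether the share exceeds chance was not tested. The median absolute log2 fold change over all genes was 0.10 and 673 genes (4.88%) exceeded 0.5 in either direction. All 5 OGD-R libraries lay above all 5 NX/NG libraries for 148 genes (1.07%) and below them for 137 genes (0.994%).

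**Figure D1:**
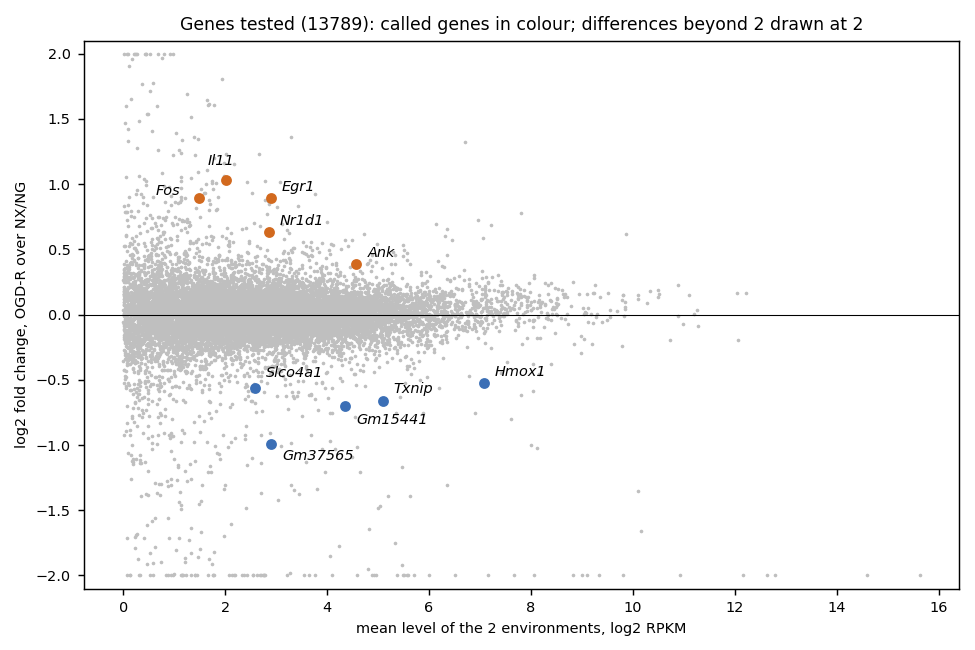
Each grey point is 1 of the 13789 genes tested, with its mean level over both environments in log2 RPKM on the horizontal axis and the log2 fold change of OGD-R over NX/NG (5 libraries each, genotype as a term) on the vertical axis, drawn at 2 or -2 where it is larger. The 5 higher genes (orange) lie between 0.39 and 1.03 and the 5 lower genes (blue) between -0.99 and -0.53, while many genes with larger differences, most of them at low levels, were not called.

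Upstream sequence is shown for 4 of the called genes. RefSeq promoters (build GRCm38.p6) matched 6 of the 10 called genes by symbol, and the 250 bases before the annotated start were searched on both strands. Capitals mark every match. The core of the hypoxia response element was searched as ACGTG and occurs in 16.6% of the 32851 promoters of this length. The E-box, searched as CACGTG and containing the former letters, occurs in 6.02% of them. For AP-1 sites the letters were TGANTCA, which 6.75% of promoters hold. The core of the cAMP response element, TGACG, is in 17.8% and the half-site of ROR and REV-ERB receptors, AGGTCA, in 14% of promoters. The ATF4 response core, TGATGNAA, is in 3.45%, and an interferon response element, also searched, is in 2.98%, with no match in the 6 genes. Last, the half-site of the carbohydrate response element was searched as CACGAG, which 5.37% of promoters hold, and was added after the levels of Txnip were known. In Nr1d1 the marked letters are the hypoxia core, 27 bases before the start, and no E-box was matched. In Il11 the letters TGACCT are the receptor half-site on the other strand, 240 bases before the start. Of the matched genes not printed, Ank holds the carbohydrate half-site 35 bases before its start and 1 promoter of Slco4a1 holds the receptor half-site. A match is a description of these letters and not evidence of binding.
Txnip, chr3:96557707-96557956, plus strand: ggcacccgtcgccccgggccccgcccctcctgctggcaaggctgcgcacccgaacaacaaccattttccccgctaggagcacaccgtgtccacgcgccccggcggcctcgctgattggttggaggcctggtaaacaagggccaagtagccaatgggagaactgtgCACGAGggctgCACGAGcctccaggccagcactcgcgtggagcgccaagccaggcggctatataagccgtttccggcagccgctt
Nr1d1, chr11:98775378-98775627, minus strand: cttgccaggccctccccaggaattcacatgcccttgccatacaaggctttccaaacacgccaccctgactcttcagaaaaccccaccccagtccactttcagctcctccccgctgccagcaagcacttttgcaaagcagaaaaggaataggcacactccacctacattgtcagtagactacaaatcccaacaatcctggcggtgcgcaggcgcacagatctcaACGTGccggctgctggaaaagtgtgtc
Fos, chr12:85473640-85473889, plus strand: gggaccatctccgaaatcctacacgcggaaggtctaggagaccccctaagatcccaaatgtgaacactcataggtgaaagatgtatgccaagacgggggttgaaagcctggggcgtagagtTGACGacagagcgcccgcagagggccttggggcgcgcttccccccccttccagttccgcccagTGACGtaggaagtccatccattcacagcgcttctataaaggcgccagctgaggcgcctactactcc
Il11, chr7:4778142-4778391, minus strand: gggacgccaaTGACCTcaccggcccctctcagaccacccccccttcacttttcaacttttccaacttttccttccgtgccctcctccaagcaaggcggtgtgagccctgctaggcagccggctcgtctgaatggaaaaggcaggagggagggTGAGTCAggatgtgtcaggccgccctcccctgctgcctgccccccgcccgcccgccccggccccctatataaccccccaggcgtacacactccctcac

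Txnip, which encodes a thioredoxin-binding arrestin that restrains glucose uptake and is a standard readout of intracellular glucose, fell after OGD-R. Its levels were 38.7, 42.5 and 41.4 RPKM in Cort+/+ and 41.0 and 45.1 RPKM in Cort-/- cells under NX/NG, against 24.04, 25.1 and 29.2 RPKM and 26.7 and 27.0 RPKM after OGD-R. No OGD-R library reached the lowest NX/NG library, and the NX/NG level was 1.58 times the OGD-R level (log2 fold change -0.66, SE 0.06, limma adjusted p = 0.00673). The CACGAG pair printed above begins 85 and 74 bases before the Txnip start. Gm15441, a long non-coding RNA, runs antisense to Txnip and shares 606 exonic bases with it in GENCODE vM21. It had 23.9, 26.7, 25.0, 24.2 and 27.1 RPKM under NX/NG and 14.4, 13.9, 17.3, 15.7 and 16.6 RPKM after OGD-R (log2 fold change -0.70, SE 0.07, limma adjusted p = 0.00831). The strand setting of the authors' counting is not given in the sources used here, so reads of the pair may be shared and both genes may record 1 change. Arrdc4, an arrestin related to Txnip that follows glucose through the same factors, had a mean of 19.5 RPKM under NX/NG and 15.6 RPKM after OGD-R (log2 fold change -0.32, unadjusted p = 0.0308). The glucose-responsive list also holds the sensor genes Mlx, Mlxip and Mlxipl. Of its 7 genes tested 1 was called, against 0.0725% of all genes, and 2 were lower and 0 higher at an unadjusted p under 0.05. Its log2 fold changes were positive for 4 and negative for 3 genes, with a median of 0.0063 (-0.08 without the 2 libraries low in ribosomal RNA).

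Nr1d1, which encodes the circadian repressor REV-ERBα, rose to 1.55 times its NX/NG level. Under NX/NG it lay at 6.22, 5.72 and 5.15 RPKM in Cort+/+ and at 5.55 and 5.82 RPKM in Cort-/- cells. After OGD-R it reached 8.60, 8.67 and 9.20 RPKM in Cort+/+ and 8.64 and 9.16 RPKM in Cort-/- cells, and the environments were separate in both genotypes (log2 fold change 0.63, SE 0.06, limma adjusted p = 0.00673). Its 3' end overlaps Thra on the opposite strand over 263 exonic bases, and Thra had a log2 fold change of 0.19 (SE 0.09, unadjusted p = 0.057). Among 15 clock genes tested Nr1d1 was the one called, 4 were higher and 2 lower at an unadjusted p under 0.05, and the list's median was 0.10 against 0.0022 over all genes (0.02 without the 2 libraries low in ribosomal RNA). The shares over all genes were 0.0725% called, 6.55% higher and 5.54% lower. Nr1d2, the paralogue of Nr1d1, lay at 5.83 to 7.36 RPKM under NX/NG and 7.46 to 8.62 RPKM after OGD-R (log2 fold change 0.32). Dbp and Per3, which the clock activators drive through E-boxes, had log2 fold changes of 0.40 and 0.31. Cry1 and Arntl, both known REV-ERB targets, had values of -0.38 and -0.30. These 5 genes did not pass the adjusted threshold, and whether their values are linked to Nr1d1 was not tested.

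Immediate early genes formed the next set. Fos, a subunit of AP-1, had 2.202, 2.28, 1.78, 2.02 and 1.41 RPKM in the NX/NG libraries (Cort+/+ first) and 4.34, 4.03, 3.88, 3.07 and 3.03 RPKM in the OGD-R libraries. It was 1.86-fold higher (log2 fold change 0.89, SE 0.11, limma adjusted p = 0.0319) on 41 to 144 reads per library. Egr1, a zinc-finger factor induced through serum response factor, had 6.76, 6.29, 5.36, 3.45 and 4.43 RPKM under NX/NG and 9.56, 9.75, 11.1, 8.56 and 8.99 RPKM after OGD-R (log2 fold change 0.89, SE 0.11, limma adjusted p = 0.0333). Both genes were higher in every OGD-R library than in any NX/NG library. Of 28 members tested of the immediate early and MAPK feedback list, Fos and Egr1 were called, 6 were higher and 1 lower at an unadjusted p under 0.05, and 5 lay higher without overlap, against the 1.07% given above for all genes. The median of the list was 0.03 (0.0015 without the 2 libraries low in ribosomal RNA), since members such as Dusp1 (-0.05), Jun (0.05) and Klf2 (0.13) barely differed. The orphan nuclear receptor Nr4a1 missed the threshold (log2 fold change 0.85, SE 0.12, limma adjusted p = 0.0663), and Junb, Ier3 and Ier2 had log2 fold changes of 0.51, 0.36 and 0.36. Btg2, an antiproliferative gene, was the lower member (-0.17). The 250 upstream bases of Fos hold TGACG at 129 and 66 bases before the start.

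Il11, a cytokine of the interleukin-6 family, rose most among the called genes. It had 3.65, 2.21 and 3.34 RPKM in Cort+/+ and 1.72 and 2.22 RPKM in Cort-/- cells under NX/NG, and 6.38, 6.83 and 6.11 RPKM and 4.31 and 3.57 RPKM after OGD-R. The environments were separate within each genotype and overlapped between them (log2 fold change 1.03, SE 0.14, limma adjusted p = 0.0437). After OGD-R both Cort-/- libraries lay below all Cort+/+ libraries, while under NX/NG the genotypes overlapped at 2.21 and 2.22 RPKM. One of its 2 RefSeq promoters carries the AP-1 letters TGAGTCA 98 bases before the start, as printed above, and the other holds none of the motifs searched. Areg, an EGF receptor ligand, had 1.13 to 2.05 RPKM under NX/NG and 2.29 to 3.39 RPKM after OGD-R without overlap, and was not called (log2 fold change 0.90, limma adjusted p = 0.13). Ank, which encodes a membrane transporter of pyrophosphate and ATP export, had 23.5, 24.004, 22.1, 16.9 and 16.8 RPKM under NX/NG and 28.1, 30.1, 31.0, 24.03 and 21.8 RPKM after OGD-R (log2 fold change 0.39, SE 0.05, limma adjusted p = 0.0385). As with Il11, its levels separated the environments within each genotype only.

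Hmox1, the haem oxygenase induced by NRF2 and by haem, fell after OGD-R. It had 148, 137, 155, 188 and 164 RPKM under NX/NG and 93.7, 109, 94.1, 120 and 135 RPKM after OGD-R, without overlap (log2 fold change -0.53, SE 0.07, limma adjusted p = 0.0482). Slco4a1, an organic anion transporter that also carries thyroid hormone, had 5.36, 5.65 and 6.17 RPKM in Cort+/+ and 9.61 and 9.03 RPKM in Cort-/- cells under NX/NG. After OGD-R its levels were 3.93, 3.93 and 3.33 RPKM and 6.67 and 6.44 RPKM (log2 fold change -0.56, SE 0.07, limma adjusted p = 0.0282). It was lower in each genotype, while its Cort-/- libraries stayed above the Cort+/+ libraries of the same environment. The non-coding gene model Gm37565 showed the smallest p of all genes, with 7.997, 8.56, 6.89, 13.6 and 13.0 RPKM under NX/NG and 3.76, 4.11, 4.32, 6.43 and 5.96 RPKM after OGD-R (log2 fold change -0.99, SE 0.07, limma adjusted p = 0.00253). Its listed length is 491 bases and it carried 23 to 80 reads per library.

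**Figure D2:**
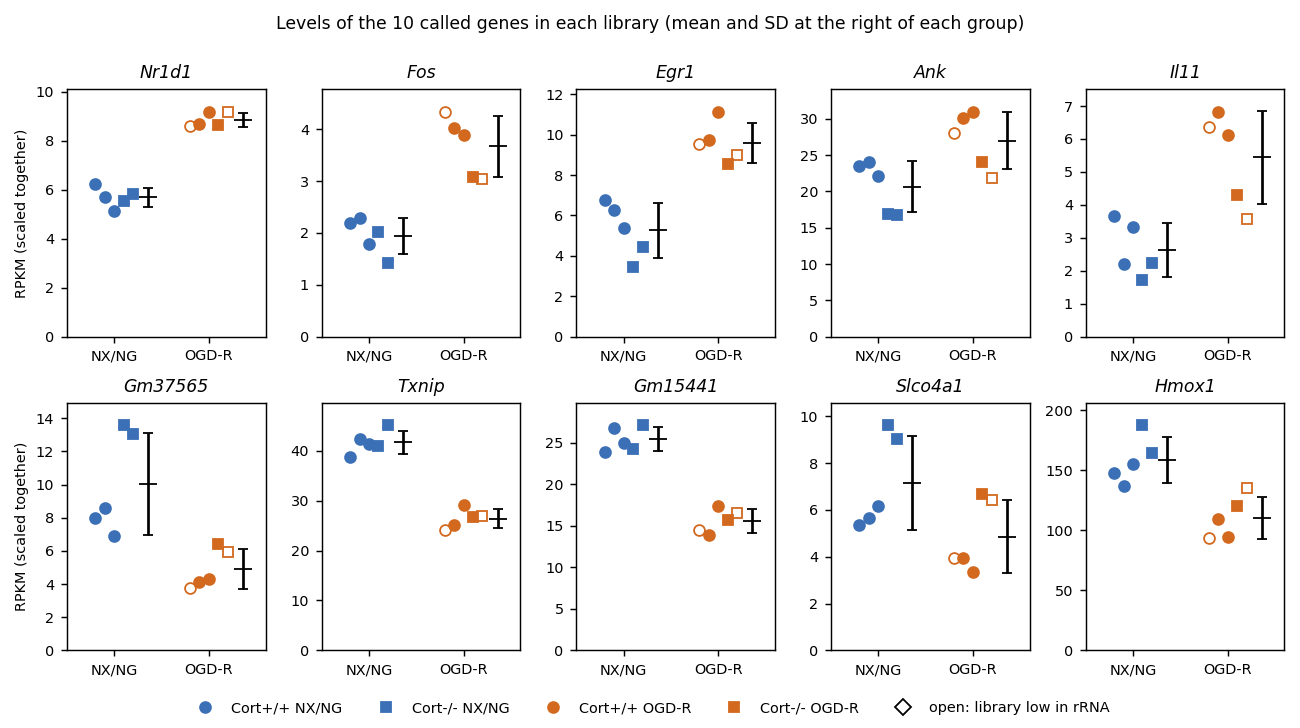
Each panel gives the level of 1 called gene in RPKM, scaled over the 10 libraries together, for NX/NG (blue) and OGD-R (orange), with circles for Cort+/+ and squares for Cort-/- libraries, open symbols for the 2 libraries low in ribosomal RNA, and the mean with its SD over 5 libraries at the right. Nr1d1, Fos, Egr1, Gm37565, Txnip, Gm15441 and Hmox1 separate the environments over all 10 libraries, and Ank, Il11 and Slco4a1 separate them within each genotype.

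These 10 calls differed in how far they held. Gm37565, Nr1d1 and Txnip passed the adjusted threshold with each of the 10 libraries left out in turn and Gm15441 with 9 of 10, while Slco4a1, Fos, Egr1, Ank, Il11 and Hmox1 passed with 0 to 2 of 10. With the replicate number within genotype as a block, 0 of the 10 passed (limma adjusted p between 0.2213 and 0.3465). Without both libraries low in ribosomal RNA, Gm37565 was the only one of the 10 that passed (limma adjusted p = 0.0361, the other 9 between 0.0841 and 0.162), with 3 OGD-R libraries left. With all 10 libraries and a covariate marking those low in ribosomal RNA, Gm37565, Nr1d1, Txnip, Gm15441 and Ank passed in limma. Fos, Egr1, Il11, Hmox1 and Slco4a1 did not, while Cnn1, Mmp28 and ENSMUSG00002075822, a gene model without a symbol, were added.

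The fold changes themselves moved little without these libraries, at 0.63 for Nr1d1, -0.63 for Txnip, 0.87 for Fos, 0.89 for Egr1 and 1.09 for Il11. A short gene model without a symbol, ENSMUSG00002075822, was the second gene called without them, and was chosen for naming after its value was seen (log2 fold change -4.43, limma adjusted p = 0.0361). With limma-voom on the recovered reads, 21 genes were called, including all 10. The 11 added were Nr4a1, Syt15 and Timp1 among the higher genes, and Neat1, Myh11, Ccl9, H1f2, Fam102b, Ch25h and 2 gene models without a symbol among the lower ones.

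**Figure D3:**
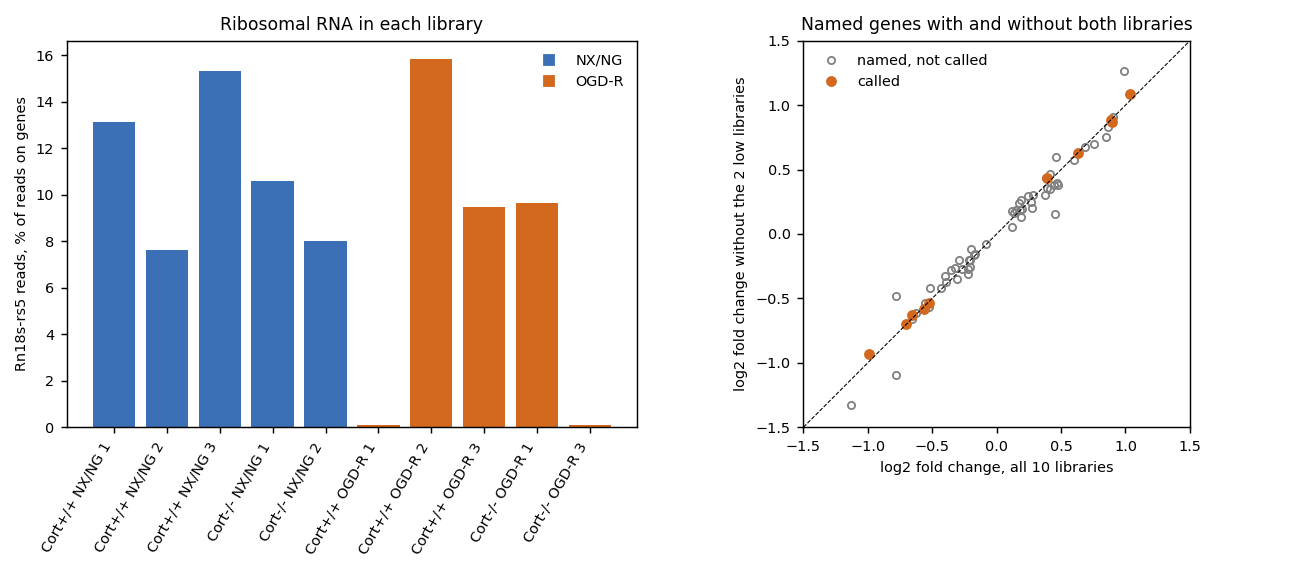
The left panel gives the share of reads on Rn18s-rs5 in each library in percent, and the right panel the log2 fold change (OGD-R over NX/NG) of the named genes without the 2 low libraries against that of all 10, with called genes in orange and the line of equal change dashed. The bars of Cort+/+ OGD-R 1 and Cort-/- OGD-R 3 are barely visible at 0.0775% and 0.0951%, and the called genes lie along the dashed line.

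Genes that came next by p were not called, and their levels are given for description. Neat1, the scaffold RNA of paraspeckles, had 16.8 to 19.0 RPKM under NX/NG and 10.6 to 13.6 RPKM after OGD-R without overlap (log2 fold change -0.52, SE 0.08, limma adjusted p = 0.0732). The linker histone gene H1f2 lay at 27.0 to 33.0 RPKM against 20.2 to 24.4 RPKM (log2 fold change -0.44). Ch25h, which makes 25-hydroxycholesterol, lay at 9.58 to 15.7 RPKM against 7.09 to 9.73 RPKM (log2 fold change -0.62). Lower values were also found for Fam102b (-0.40), the gene model Gm19221 (-0.66), Mat2a, which makes S-adenosylmethionine (-0.33), and the aldo-keto reductase gene Akr1c14 (-0.55). Higher values were found for Ptms (0.28), the spindle gene Nusap1 (0.39), the synaptotagmin gene Syt15 (0.60), the mitotic kinase gene Pbk (0.38) and an unnamed gene model, ENSMUSG00002076711 (0.37).

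Both genotypes moved in the same direction for all 10 called genes, as choosing them by the effect over both genotypes favours. Within Cort+/+ cells (3 against 3) the log2 fold change was 0.63 for Nr1d1, -0.65 for Txnip, 0.72 for Egr1 and 1.08 for Il11, and within Cort-/- cells (2 against 2) it was 0.64, -0.68, 1.15 and 0.97. Neither genotype alone gave a called gene in limma, with 930 genes at an unadjusted p under 0.05 in Cort+/+ and 516 in Cort-/- cells. The difference of the responses, tested as an interaction, was called for 0 genes in limma and for 0 in limma-voom, and 229 genes (1.66%) had an unadjusted p under 0.05. None of the 10 called genes was among those 229, and at a share of 1.66% few of 10 would be. That does not show equal responses, as the 95% intervals of the difference (Cort-/- minus Cort+/+, log2) ran from -0.28 to 0.30 for Nr1d1, from -0.34 to 0.28 for Txnip, from -0.01 to 0.86 for Egr1 and from -0.78 to 0.57 for Il11. Over all genes tested, 9047 (65.6%) had the same sign in both genotypes, with a Pearson correlation of 0.40 between the 2 sets of log2 fold changes. Each genotype held 1 library low in ribosomal RNA among its OGD-R libraries, and without them the share was 55.6% and the correlation 0.12, a description over genes, which are not independent of each other.

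**Figure D4:**
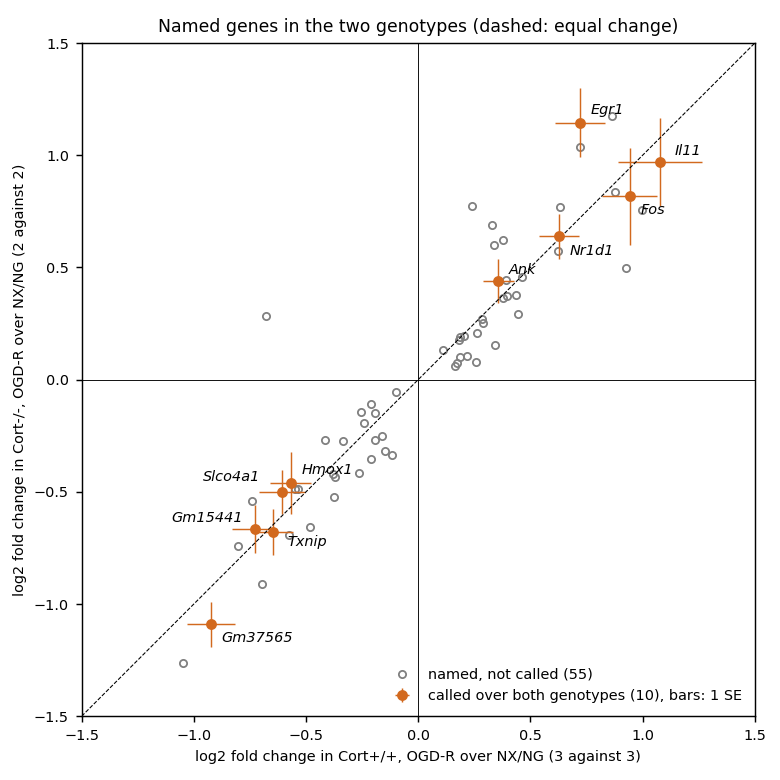
Each point is 1 named gene, with its log2 fold change of OGD-R over NX/NG in Cort+/+ cells on the horizontal axis and in Cort-/- cells on the vertical axis. The 10 genes called over both genotypes (orange, bars of 1 SE) lie near the dashed line of equal change, Egr1 above it at 0.72 and 1.15. Most of the other named genes (grey) lie in the same 2 quadrants. The choice by low p over both genotypes favours a shared sign for called and other named genes.

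HIF targets and glycolytic genes showed no common shift at 20 h of reoxygenation. Among all genes tested, 6.55% were higher and 5.54% lower at an unadjusted p under 0.05. Of 27 HIF targets tested, 0 were called in limma or limma-voom, 2 were higher and 3 lower at an unadjusted p under 0.05, and their median log2 fold change was -0.05 (-0.00054 without the 2 libraries low in ribosomal RNA). Vegfa, the angiogenic growth factor, lay at 5.19 to 10.01 RPKM under NX/NG and 7.79 to 13.1 RPKM after OGD-R (log2 fold change 0.47, SE 0.11, unadjusted p = 0.00148), and the hexokinase gene Hk2 had a log2 fold change of 0.44. The prolyl hydroxylase genes Egln3 and Egln1 and the glucose transporter gene Slc2a1 were the 3 lower members (-0.19, -0.14 and -0.23). The HIF targets Adm (-0.10), Bnip3 (-0.10), Pdk1 (-0.10) and Angptl4 (-0.45, unadjusted p = 0.0745) did not reach that p. Glycolysis, with 18 genes tested, had 2 members on each side and a median of 0.05 (-0.0007 without those 2 libraries). Gapdh, often used as a reference transcript, was higher in all 5 OGD-R libraries (log2 fold change 0.19, limma adjusted p = 0.343).

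Stress lists held 1 called gene, and in 3 of them more members were lower than higher. Over all genes tested, 0.0725% were called, and 6.55% were higher and 5.54% lower at an unadjusted p under 0.05. Of 18 NRF2 targets and antioxidant genes tested, Hmox1 was called, 6 were lower and 0 higher at an unadjusted p under 0.05, and the median was -0.05 (-0.10 without the 2 libraries low in ribosomal RNA). Gclm, a subunit of the glutathione-making ligase, lay at 11.7 to 14.1 RPKM against 8.74 to 10.9 RPKM (log2 fold change -0.33), and the cystine transporter gene Slc7a11 at -0.37, whereas Nqo1 stood at 0.15. In the ATF4 list of 20 genes, 4 were lower and 1 higher (Slc7a5 -0.36, Asns -0.17, Chac1 -0.24, Slc7a11 -0.37 and Nupr1 0.27), with a median of -0.09, and 7 were lower at that p without the 2 libraries low in ribosomal RNA. The 15 chaperone genes of the endoplasmic reticulum had a median of 0.02, with Xbp1 (0.17) the one member at an unadjusted p under 0.05, and the 13 heat shock genes had a median of 0.0043 (-0.06 without those 2 libraries), with Hsph1 at -0.20. Of 17 p53 targets 5 were lower and 0 higher, among them Plk2 (-0.22), Btg2 (-0.17) and the receptor gene Eda2r (-0.27), with a median of -0.11 (6 lower and a median of -0.16 without those 2 libraries), and Cdkn1a stood at 0.03.

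Proliferation genes were read in 2 lists, mitosis and DNA replication. All 15 mitotic genes tested had a positive log2 fold change, with a median of 0.20, and 9 were higher at an unadjusted p under 0.05, against 6.55% of all genes. None passed the adjusted threshold. The lowest p belonged to the cyclin gene Ccna2 (14.1 to 15.8 RPKM under NX/NG and 15.8 to 18.0 RPKM after OGD-R, log2 fold change 0.18) and the kinase gene Aurkb (4.47 to 5.97 RPKM and 6.17 to 7.58 RPKM, 0.41). Top2a (0.30) and Birc5 (0.26) followed. Without the 2 libraries low in ribosomal RNA, 4 of the 15 stayed at that p and the median was 0.14. The 15 replication genes had 0 members at an unadjusted p under 0.05 in limma, a median of 0.04 (0.02 without those 2 libraries) and a range from -0.08 to 0.12, with Pcna at 0.12 and Tyms at 0.12.

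No gene of the extracellular matrix was called in limma. For comparison, 6.55% of all genes tested were higher and 5.54% lower at an unadjusted p under 0.05. Of 27 matrix components 9 were higher and 1, Lama5, lower at an unadjusted p under 0.05, and the median was 0.17 (6 higher, 0 lower and 0.16 without the 2 libraries low in ribosomal RNA). Col5a3, a fibrillar collagen gene, had 1.94, 1.86, 1.48, 1.11 and 1.04 RPKM under NX/NG and 4.44, 2.94, 2.74, 2.44 and 1.62 RPKM after OGD-R (log2 fold change 0.86, SE 0.16, limma adjusted p = 0.14). Has2, which makes hyaluronan, had 0.803 to 1.51 RPKM against 1.43 to 3.14 RPKM (log2 fold change 0.99, SE 0.21, limma adjusted p = 0.171). Col1a1 and Col3a1, both fibroblast markers as well, were at 0.59 and 0.47, and Col6a3 at 0.86. Some of these differed between genotypes at an unadjusted p under 0.05, with Col1a1 at 0.22 in Cort+/+ and 1.13 in Cort-/- cells and Col6a3 at 0.12 and 1.97 (interaction, unadjusted p = 0.0379 and 0.00483), though no interaction passed the adjusted threshold. Among 16 matrix proteases and inhibitors, 4 were higher and 1 lower, with a median of 0.15 (0.08 without those 2 libraries). Timp1, an inhibitor of metalloproteinases, lay at 82.7 to 153 RPKM under NX/NG and 120 to 233 RPKM after OGD-R (log2 fold change 0.69, SE 0.12, limma adjusted p = 0.137). Mmp28 lay at 3.56 to 4.35 RPKM against 4.43 to 6.65 RPKM (log2 fold change 0.46), and the collagenase genes Mmp13 and Mmp14 at 0.99 and 0.23.

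Contractile genes gave no call in limma, and those with the lowest p had lower levels after OGD-R. At an unadjusted p under 0.05, 5.54% of all genes tested were lower and 6.55% higher. Myh11, the smooth muscle myosin heavy chain gene, had 1.59, 1.49, 1.24, 2.17 and 1.46 RPKM under NX/NG and 0.953, 0.554, 0.494, 0.623 and 0.751 RPKM after OGD-R, without overlap (log2 fold change -1.13, SE 0.20, limma adjusted p = 0.137). Cnn1, calponin, had 11.9 to 16.8 RPKM against 5.92 to 11.7 RPKM, also without overlap (log2 fold change -0.78, SE 0.21), and Actg2 stood at -1.01. Of 16 contractile genes and targets of serum response factor tested, 3 were lower and 2 higher at an unadjusted p under 0.05 (Ccn2 0.23 and Srf 0.14), with a median of -0.21. Without the 2 libraries low in ribosomal RNA, 8 were lower and 1 higher and the median was -0.25. The abundant members Acta2 and Tagln had log2 fold changes of -0.24 and -0.23. Bulk RNA cannot tell fewer cells of a type from less of their RNA per cell, and 4 of these genes are smooth muscle markers.

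Inflammatory genes showed a call for Il11 and smaller values elsewhere. Over all genes tested, 6.55% were higher and 5.54% lower at an unadjusted p under 0.05, and 1.07% were higher without overlap. Of 13 chemokine, cytokine and NF-kB genes tested, 5 were higher and 0 lower at an unadjusted p under 0.05, with a median of 0.09 (6 higher and a median of 0.02 without the 2 libraries low in ribosomal RNA). Birc3 and Relb, both NF-kB targets, were higher without overlap (log2 fold changes 0.33 and 0.28), and Nfkbiz and Cxcl1 stood at 0.23 and 0.39, while the chemokine gene Ccl2 had a mean of 298 RPKM under NX/NG and 261 RPKM after OGD-R (-0.18). Interferon-stimulated genes numbered 23, of which 5 were higher and 0 lower. Their median was 0.17 over both genotypes (0.26 without those 2 libraries), 0.30 in Cort+/+ and -0.13 in Cort-/- cells, a difference that was not tested for the list, and 0 members had an interaction at an unadjusted p under 0.05. Gbp5, a guanylate-binding protein, lay at 0.617 to 1.14 RPKM against 1.16 to 1.79 RPKM (log2 fold change 0.75, limma adjusted p = 0.245). Of 7 adhesion molecules for leukocytes, Cd34 was lower at an unadjusted p under 0.05, and Icam1, Vcam1 and Sele had log2 fold changes of 0.20 (SE 0.26), -0.04 (SE 0.10) and 0.16 (SE 0.28).

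Genes of endothelial identity and of the barrier gave no call in limma. The shares of all genes tested at an unadjusted p under 0.05 were 5.54% lower and 6.55% higher. Of 24 identity genes, 4 were lower (Cd34, Nos3, Tek and Sox18) and 1 higher (Vwf, 0.49), with a median of -0.06. The median of identity genes was -0.0063 in Cort+/+ and -0.13 in Cort-/- cells, a difference that was not tested for the list. Over both genotypes it was -0.0081 without the 2 libraries low in ribosomal RNA. With scaling by total reads it was 0.01, where its sign turned. Cd34, a sialomucin of capillary endothelium, had 44.1, 46.0, 57.6, 62.1 and 68.4 RPKM under NX/NG and 33.7, 38.9, 40.3, 50.4 and 47.0 RPKM after OGD-R (log2 fold change -0.40, SE 0.08, limma adjusted p = 0.171). Nos3, endothelial nitric oxide synthase, had a mean of 35.7 RPKM against 28.7 RPKM (-0.31, SE 0.07, limma adjusted p = 0.171). Of 15 junction genes 4 were lower and 0 higher, among them the connexin gene Gja4 (-0.53), Cgnl1 (-0.21) and Ocln (-0.21), with a median of -0.09 (2 lower and a median of -0.02 without those 2 libraries). Claudin-5 (Cldn5) averaged 122 RPKM under NX/NG and 115 RPKM after OGD-R, and its log2 fold change was -0.09 with an SE of 0.09. Tjp1, Cdh5 and Pecam1 had values of -0.16, -0.05 and 0.05. Among 13 barrier transporters 3 were lower, the amino acid carrier gene Slc7a5 (-0.36), Lrp8 (-0.22) and Slc2a1 (-0.23), and the efflux pump gene Abcb1a was at 0.16. The transporters' median was -0.08, and -0.14 without those 2 libraries.

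Lipid and signalling lists gave few members past an unadjusted p of 0.05. That p was reached by 6.55% of all genes as higher and by 5.54% as lower. Cholesterol synthesis had 3 higher and 1 lower of 21 (median 0.04, with Nsdhl at 0.20 and Acat2 at 0.28), and fatty acid synthesis had 1 higher of 9 (Fads2, 0.13, beside Fads1 at 0.15). TGF-beta and BMP genes had 3 higher of 13, Tgfbi (0.41), Skil (0.24) and Id1 (0.39), with a median of 0.16 (0.19 without the 2 libraries low in ribosomal RNA). In the Notch list of 9 genes Hes1 was higher without overlap (14.4 to 15.3 RPKM against 15.6 to 19.5 RPKM, log2 fold change 0.27) and Nrarp lower (-0.22), with a median of -0.17 (-0.06 without the 2 libraries low in ribosomal RNA). Angiogenic ligands and receptors had 2 higher of 16, Vegfa and Vegfc (0.45), and Tek lower (-0.27). In the list of vascular tone and prostanoids Ptgs1, cyclo-oxygenase 1, was higher (0.47, SE 0.10, limma adjusted p = 0.182). The 12 mitochondrially encoded respiratory chain genes tested had 0 members at that p in limma and a median of -0.13, which was 0.13 without the 2 libraries low in ribosomal RNA.

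**Figure D5:**
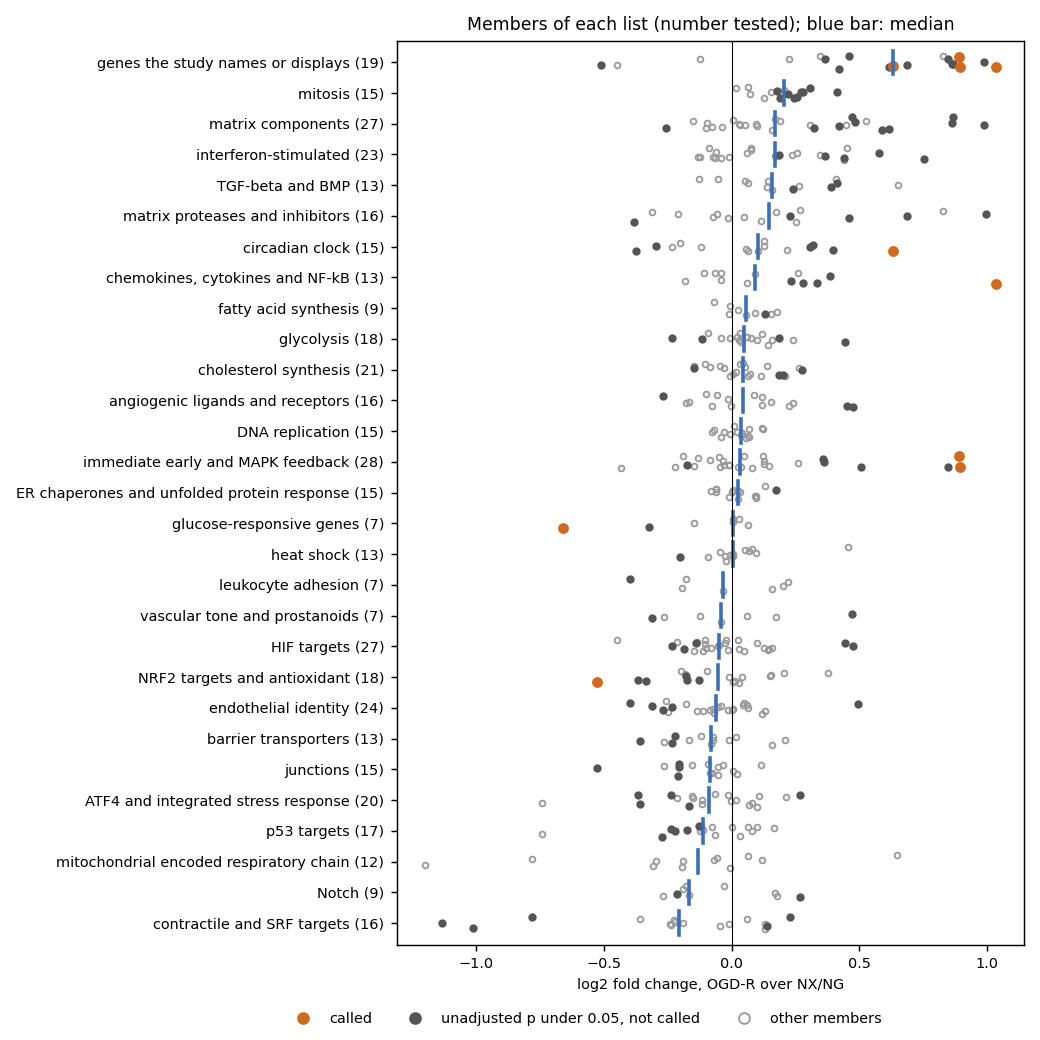
Each row is 1 gene list with the number of its members tested, each point 1 member's log2 fold change of OGD-R over NX/NG, and the blue bar the list's median. Mitotic genes lie wholly above 0 with a median of 0.20, contractile genes reach down to -1.13, and HIF targets, heat shock and chaperone genes centre near 0.

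A list of 22 genes was put together from those that the study names or displays for this transition in either genotype. Its genes were picked on these samples, so its direction is not independent evidence. Of 19 members tested, 4 were called higher (Nr1d1, Fos, Egr1 and Il11) and 0 lower, 13 were higher and 1 (Pcdh12, -0.51) lower at an unadjusted p under 0.05, and the median was 0.63. In Cort+/+ cells the median was 0.63 and in Cort-/- cells it was 0.64. Members away from this were Nos2 (-0.12, SE 0.60), Angptl4 (-0.45) and Gbp3 (0.35, with 0.71 in Cort+/+ and -0.20 in Cort-/- cells, interaction unadjusted p = 0.0625).

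Endothelial markers were high in every library, and so were the smooth muscle markers Acta2 (614 to 1105 RPKM) and Tagln (349 to 695 RPKM). Acta2 lay above Cdh5 (453 to 721 RPKM) in every library except Cort-/- OGD-R replicate 1. Some other markers of mural and matrix-forming cells were present at lower levels, while others were near 0. The 8 brain endothelial markers, led by Cdh5, summed to 911 to 1349 RPKM under NX/NG and 929 to 1347 RPKM after OGD-R (difference of mean log2 sums -0.06, two-sided exact permutation test within genotype, p = 0.65). The 5 smooth muscle markers summed to 1338 to 1818 RPKM against 969 to 1651 RPKM, mostly Acta2 and Tagln (difference -0.24, exact permutation p = 0.15). Over the 10 libraries Cnn1 lay at 5.92 to 16.8 RPKM, Myh11 at 0.494 to 2.17 RPKM and Des at 0.0885 to 0.378 RPKM. Fibroblast markers summed to 86.0 to 285 RPKM and 195 to 334 RPKM, mostly Col1a1 (difference 0.54, exact permutation p = 0.0833). Of the less abundant fibroblast markers, Dpt and Lum stayed at or below 0.0482 and 0.145 RPKM in every library, while Dcn lay at 0.555 to 1.88 RPKM and Pdgfra at 0.306 to 0.727 RPKM. Col1a2 and Col3a1 lay at 15.4 to 62.2 RPKM and 21.4 to 64.9 RPKM over the 10 libraries. Pericyte markers summed to 10.8 to 27.2 RPKM and 17.4 to 25.4 RPKM, led by Pdgfrb. Abcc9, Kcnj8, Higd1b and Vtn stayed at or below 0.01984, 0.03444, 0.1051 and 0.5593 RPKM, while Anpep, Cspg4, Notch3 and Rgs5 lay between 0.698 and 5.02 RPKM. Leptomeningeal markers, led by Foxc1, summed to 7.42 to 9.14 RPKM and 6.005 to 8.72 RPKM. Choroid plexus markers summed to 16.6 to 19.1 RPKM and 16.0 to 20.7 RPKM, mostly Clic6. Enpp2 lay at 1.53 to 4.33 RPKM, and Ttr, Folr1, Otx2 and Kl stayed at or below 1.194, 0.1819, 0.1352 and 0.009539 RPKM. Epithelial markers reached 74.2 RPKM in Cort+/+ NX/NG replicate 2 and 49.1 RPKM in Cort-/- OGD-R replicate 1. Astrocyte, oligodendrocyte and neuron markers summed to at most 0.94 RPKM, and those of macrophages and microglia to at most 4.18 RPKM. Over the 12 sums compared, that of RNA without a poly(A) tail included, the lowest Benjamini-Hochberg adjusted p of the exact permutation test was 0.5. Whether other cells contributed to the contractile and matrix values was not tested.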

How the data were processed

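RNA-seq of cultured BECs was analysed from 10 libraries in 2 tables, 1 per environment. The authors deposited RPKM per gene and library, from a pipeline (reanalyzerGSE) meant to retain weakly expressed genes, and the submitters' processing notes name edgeR. The aligner, genome build and strand setting are not given in the sources used here, and labels and paper name different library kits, RNA inputs and read lengths. A further 10 columns of expression categories were not used, nor were the authors' fold changes, p-values and FDR of genotype comparisons.

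The authors scaled the tables apart. Reads were therefore recovered from RPKM times gene length (within 0.05 of a whole number for at least 99.9958% of values), joined over the 27321 genes in both tables, and normalised jointly with TMM (trimmed mean of M values). The 5098 genes of 1 table only had at most 13 reads each in all. Genes averaging 1 RPKM or more were fitted as log2(RPKM + 0.1), a scale that understates folds of low genes, using limma 3.58.1 under R 4.3.3 (moderated by empirical Bayes with trend, environment plus genotype, two-sided), after a test on simulated data with known changes. The simulated counts had a single dispersion for all genes, no genotype effect and no library low in ribosomal RNA. That test therefore does not cover these features of the data. P-values were adjusted by Benjamini-Hochberg over all genes tested, and calls were made at 0.05. The interaction was fitted on 4 group means. Marker sums were compared by an exact permutation test over 120 arrangements within genotype. The recovered totals were nearly equal, for which the sources used here give no reason, and both labels and paper state larger read numbers, so the recovered values may not be the original reads. The 3-read floor covers counting error only. Replicates are labelled as independent experiments. The genes described were the 12 with the lowest p in each direction, called members of each list or otherwise its 2 members with the lowest p, and Cort. Further list members were named after their values were seen. Not every list member is reported here by name. All lists were chosen with earlier results of these data known and are given as counts and medians without a set test. Older symbols were matched through RefSeq synonyms. Alternatives were other pseudocounts, filters, scalings, covariates, replicate blocks, limma-voom, array weights and left-out libraries.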

Additional observations from a re-analysis of the deposited data

Results flagged for a closer look

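In 3 of 44 groups of 5 libraries tested (10 called genes and 12 marker sums, each in both environments), 1 library lay far from the other 4 by Dixon's ratio at its 95% critical value of 0.71. Chance alone gives about 1 in 20 such groups. The epithelial marker sum was 74.21 RPKM in Cort+/+ NX/NG replicate 2, against 13.6 to 23.1 RPKM in the other NX/NG libraries, and 49.05 RPKM in Cort-/- OGD-R replicate 1, against 10.6 to 21.3 RPKM in the other OGD-R libraries. The sum of oligodendrocyte markers was 0.2804 RPKM in Cort-/- NX/NG replicate 2, against 0.451 to 0.51 RPKM in the others. The levels of the 10 called genes gave no such library in either environment. No difference between the genotypes' responses passed the adjusted threshold, the lowest adjusted p of the interaction being 0.57 in limma.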

How the results depend on the processing

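The count of genes called for the environment, 10, stayed within 1.5 times with a pseudocount of 1, a mean of at least 5 RPKM, median-of-ratios, quantile or deposited scaling, scaling without RNA lacking a poly(A) tail, a covariate marking the 2 libraries with little ribosomal RNA, and array weights. It was 4 without a filter on low values, 2 with scaling by total reads (where the median of all genes was 0.08 against 0.0022, as it was with RPKM as deposited), 3 without the genotype term, 6 with both genotypes weighted equally, 2 without both libraries low in ribosomal RNA and 21 with limma-voom. Similar counts did not always hold the same genes, as given above for the covariate. The cause of the differences in count was not tested. Leaving out 1 library at a time gave 3 to 8, the lowest without Cort+/+ NX/NG replicate 3, and at most 6 unless the library left out was Cort-/- OGD-R replicate 1. With the replicate number within genotype as a replicate block the count was 0 (1317 genes at an unadjusted p under 0.05), and with the number alone as a block it was 3. Deviations from group means correlated at -0.06, -0.07 and 0.19 between same-numbered Cort+/+ libraries and at -0.14 in Cort-/- cells. These deviations sum to 0 within each group, so with 2 Cort-/- libraries per group every pair gives 0.14 or -0.14. The check therefore cannot decide whether the numbers pair the samples, and the main fit was left unpaired. The blocked fits within Cort+/+ gave 0, and Cort-/- environments share 1 number, so no paired fit was possible there. The interaction gave 3 calls without a filter and 0 to 2 with 1 library left out (2 without Cort-/- OGD-R replicate 1), and Cort+/+ alone gave 9 without a filter. The direction of the 10 called genes was kept under every alternative. Some differences of mean log2 marker sums changed sign. Leaving out 1 library at a time gave -0.0025 to 0.0976 for choroid plexus, -0.506 to 0.332 for epithelial, -0.207 to 0.0628 for astrocyte, -0.0477 to 0.16 for oligodendrocyte, -0.0872 to 0.0767 for macrophage and microglial and -0.109 to 0.0201 for brain endothelial markers. Without both libraries low in ribosomal RNA the difference was 0.0617 for endothelial markers and 0.0962 for RNA without a poly(A) tail, against -2.79 with all 10. Of the called genes, Fos, Il11 and Gm37565 had the fewest reads, 23 to 187 per library.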
